A study of Mus musculus with 3 samples.

Results

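The genes of cholesterol and fatty acid synthesis were followed through the thymus of 4-week-old female mice that carried germline alterations of p53, the tumour suppressor encoded by Trp53. The set held 38 of the 32285 genes counted, taken by gene symbol: 22 genes of cholesterol synthesis and its control, and 16 of fatty acid synthesis and its control. The single-cell RNA libraries numbered 3, and their genotype labels were p53+/-, p53 AD/- and p53-/-. What the letters AD stand for was not stated in the labels, although the title of the series mentions p53 dimers. The design text calls the first group WT, whereas its genotype label reads p53+/-. A library with both Trp53 copies intact was not analysed here, and how many animals went into each library was not given in the sources used here. The strain labels name BALB/C together with C57BL6, C57BL7 and C57BL8 in the same order. Each genotype had 1 library and no replicate, so every comparison of genotypes below is a comparison of libraries, with no test and no p-value, and all 95% intervals cover counting error only.

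Cholesterol is built from acetyl-CoA through mevalonate. HMG-CoA synthase (Hmgcs1) makes the precursor of mevalonate, the kinases Mvk and Pmvk and the decarboxylase Mvd turn mevalonate into isoprenoid units, Idi1 interconverts those units, Fdps joins them into farnesyl diphosphate, Fdft1 joins farnesyl units into squalene, and Sqle, Lss, Cyp51 and the later enzymes close and trim the sterol rings. Fatty acid synthesis starts from citrate-derived acetyl-CoA (Acly), passes through malonyl-CoA (Acaca) and the synthase Fasn, and is followed by elongation (Elovl genes) and desaturation (Scd and Fads genes). Srebf2 and Srebf1 encode the membrane-bound transcription factors that drive the sterol and the fatty acid branch, and Insig1 holds them back when sterols are plentiful. Dividing lymphocytes are known to draw on both branches for new membrane.

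The 3 libraries held 27638820 to 54164425 unique molecular identifiers (UMIs, counted molecules), and 8150, 6171 and 9543 cells in p53+/-, p53 AD/- and p53-/- had at least 500 genes and under 10% mitochondrial UMIs. Pairs of libraries shared 15 to 29 cell barcodes. Clusters were named from marker genes and are called "-like" for that reason. The quiescent DP-like class (CD4-positive CD8-positive thymocytes, led by Rag1) held 41.7%, 37.1% and 42.9% of cells in that order, cycling-like cells held 13.4%, 13.0% and 18.3%, and DN-like cells (CD4-negative CD8-negative) numbered 95, 52 and 140. Selected-like cells, named from markers of receptor signalling and selection such as Cd5, Cd69 and Itm2a, and mature single-positive (SP)-like cells made up most of the rest. The largest selected-like cluster, cluster 4, held 42.9%, 35.5% and 35.7% of its class in the same order. By mean ratio to all other cells, its highest marker list was that of quiescent DP cells, so the border between these classes is uncertain. The quiescent DP-like class was not alike in the libraries: its cluster 0 held 36.3%, 91.5% and 23.2% of the class in p53+/-, p53 AD/- and p53-/-, while cluster 2 held 38.7%, 3.8% and 66.1%. Results on that class are therefore given for single clusters too where they move. Trp53 RNA was counted in all libraries, at 59.2, 69.0 and 43.1 CPM (UMIs of a gene per 1000000 UMIs) in quiescent DP-like cells. This does not check the genotype labels, because the part of the gene that the null allele lacks was not given in the sources used here.

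All 38 members had at least 1 UMI in every library, and together they took 747 CPM of the p53+/- library, 813 of p53 AD/- and 814 of p53-/-. RefSeq start-site windows of 300 bases (250 before to 50 after the start, build GRCm38.p6) were found for 30 of the 38 members. The sterol regulatory element TCACNCCAC, searched on both strands, stood in the window of 1 of the 30, Hmgcs1, as TCACCCCAC, and in 1.24% of all 32851 windows. CCAAT, the box bound by the factor NF-Y, stood on either strand in the windows of 17 of 18 cholesterol genes and 8 of 12 fatty acid genes. By window, CCAAT was found in 17 of 21 (81.0%) for cholesterol genes, 9 of 18 for fatty acid genes and 37.4% of all windows. The E-box letters CANNTG were in 71.8% of the members' windows and 72.3% of all. A match is a description of letters and was not tied to any measurement here. The windows of 3 genes high in dividing thymocytes (Hmgcs1, Idi1 and Cyp51) and of 2 low in them (Dhcr7 and Acss2) are shown, 5′ to 3′ along the gene, with TCACNCCAC and CCAAT of either strand in capitals.
Hmgcs1, chr13:119690101-119690400, plus strand: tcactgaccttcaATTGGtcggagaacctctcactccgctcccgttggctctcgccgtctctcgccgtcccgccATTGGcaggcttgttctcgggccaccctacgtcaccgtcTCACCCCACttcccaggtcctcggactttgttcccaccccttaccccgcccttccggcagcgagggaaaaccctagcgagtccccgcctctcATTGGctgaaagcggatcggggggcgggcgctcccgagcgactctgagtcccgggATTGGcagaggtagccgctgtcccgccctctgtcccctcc
Idi1, chr13:8885356-8885655, plus strand: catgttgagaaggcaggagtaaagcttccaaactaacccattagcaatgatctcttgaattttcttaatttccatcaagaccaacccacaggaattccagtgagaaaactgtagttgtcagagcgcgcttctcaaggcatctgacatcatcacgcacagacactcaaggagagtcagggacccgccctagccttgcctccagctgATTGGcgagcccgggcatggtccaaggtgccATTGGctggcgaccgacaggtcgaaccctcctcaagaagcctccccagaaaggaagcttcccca
Cyp51, chr5:4104648-4104947, minus strand: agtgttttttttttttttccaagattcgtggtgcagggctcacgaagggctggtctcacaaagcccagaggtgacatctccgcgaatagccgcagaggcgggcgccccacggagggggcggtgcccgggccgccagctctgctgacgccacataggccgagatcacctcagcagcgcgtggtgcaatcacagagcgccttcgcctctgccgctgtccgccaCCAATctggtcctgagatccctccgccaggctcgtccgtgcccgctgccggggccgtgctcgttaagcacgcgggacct
Dhcr7, chr7:143822917-143823216, plus strand: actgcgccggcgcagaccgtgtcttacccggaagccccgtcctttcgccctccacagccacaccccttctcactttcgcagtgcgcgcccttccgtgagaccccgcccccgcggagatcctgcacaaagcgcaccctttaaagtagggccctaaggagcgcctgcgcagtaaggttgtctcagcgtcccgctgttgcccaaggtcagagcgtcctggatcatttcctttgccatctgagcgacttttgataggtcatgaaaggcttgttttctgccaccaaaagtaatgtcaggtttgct
Acss2, chr2:155517793-155518092, plus strand: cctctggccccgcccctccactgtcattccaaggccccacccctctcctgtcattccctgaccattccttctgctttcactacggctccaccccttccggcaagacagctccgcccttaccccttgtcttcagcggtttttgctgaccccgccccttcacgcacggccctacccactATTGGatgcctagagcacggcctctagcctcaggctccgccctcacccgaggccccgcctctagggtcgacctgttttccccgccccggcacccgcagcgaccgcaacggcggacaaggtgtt
Among these windows, the one of Hmgcs1 held 4 CCAAT boxes, the one of Idi1 2, those of Cyp51 and Acss2 1 each and the one shown of Dhcr7 0. Dhcr7 had 3 windows, of which only the one nearest its annotated gene start is shown, and the other genes shown had 1 each.

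Cholesterol synthesis RNA was higher in the DN-like and the cycling-like cells than in the other thymocyte classes. The 22 members summed to 609, 778 and 762 CPM in DN-like cells of p53+/-, p53 AD/- and p53-/-, to 541, 689 and 591 CPM in cycling-like cells, and to 396, 424 and 452 CPM in quiescent DP-like cells. Selected-like cells held 390, 467 and 421 CPM and mature SP-like cells 322, 400 and 333 CPM. In each library the DN-like CPM was the highest and the mature SP-like CPM the lowest, while quiescent DP-like and selected-like values lay close together and changed order between libraries. The cycling-like sum exceeded the quiescent DP-like sum by 0.51 ± 0.17 on the log2 scale (mean ± SD over 3 libraries) and the mature SP-like sum differed from it by -0.28 ± 0.18, which became 0.019 with trimmed-mean (TMM) scaling of the library totals. That scaling also put the cycling-like above the DN-like sum in p53+/- (626 against 578) and p53 AD/- (885 against 789), though not in p53-/- (645 against 712). The classes also differ in lineage stage: quiescent DP markers (10 genes) summed to 3118, 3709 and 3203 CPM in cycling-like cells against 11131, 12754 and 10914 in quiescent DP-like cells, and the part of that in the differences below was not tested. Per cell the gap was wider, since cycling-like cells held more RNA: 8.91, 9.25 and 8.50 cholesterol synthesis UMIs per cell against 1.11, 0.836 and 1.13 in quiescent DP-like cells, with median total UMIs of 13086, 10962 and 11310 against 2606, 1847.5 and 2262.

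**Figure D1:**
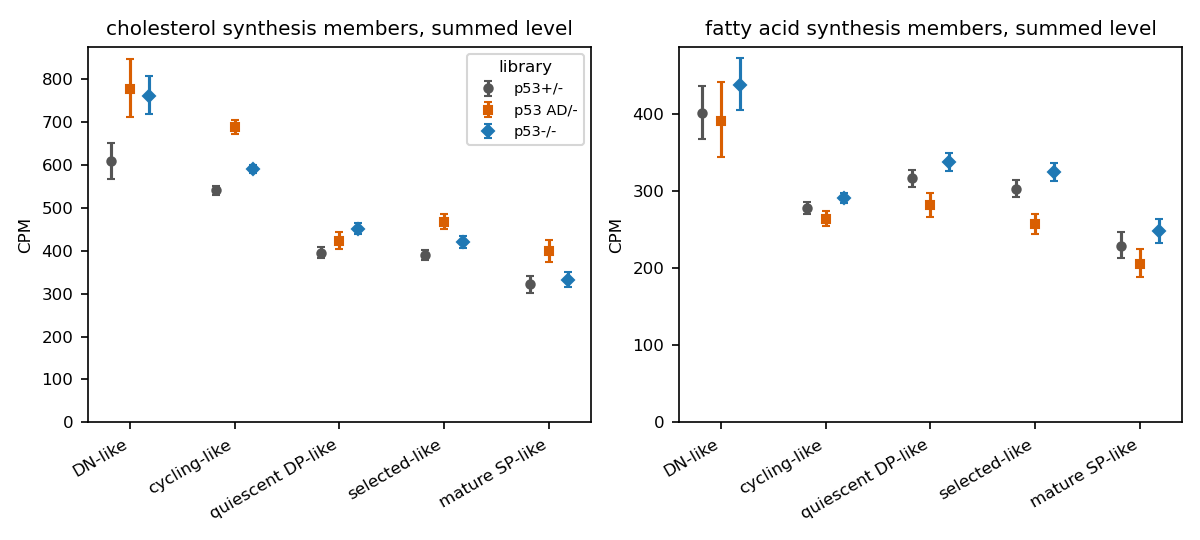
Summed level of the 22 cholesterol members (left) and the 16 fatty acid members (right) in CPM by class and library. Bars are 95% Poisson intervals for counting error. In CPM the cholesterol sum was highest in DN-like cells and lowest in mature SP-like cells in each library, an order that TMM scaling changed in both places, and the fatty acid sum of p53 AD/- was below that of p53-/- in each class (in cycling-like cells not with TMM scaling).

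In CPM, the sum of the fatty acid list did not share the rise of the cholesterol sum in cycling-like cells. Its 16 members summed to 278, 264 and 291 CPM there and to 316, 282 and 338 CPM in quiescent DP-like cells, a mean log2 difference of -0.17 ± 0.06. The sum rests largely on the desaturase Scd2, and without Scd2 the mean difference was 0.086. DN-like cells held 401, 391 and 438 CPM, above the quiescent DP-like cells in each library. Mature SP-like cells held 229, 206 and 248 CPM, below them in each library, by -0.45 ± 0.01, or by -0.16 with TMM scaling. The measured genes as a whole had a median log2 ratio of -0.40 between cycling-like and quiescent DP-like cells. TMM scaling raised every log2 ratio of this comparison by 0.36, 0.53 and 0.36 in the 3 libraries and turned the fatty acid sum to 0.25, so that small negative ratios of members, such as that of Acly below, change sign under it.

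Gene by gene, a member was taken as measured in a stage comparison with at least 100 UMIs over both classes in each library, and as called when it differed at least 2-fold in the same direction in all 3 libraries. In cycling-like against quiescent DP-like cells 19 of 22 cholesterol members were measured, of which 4 were called higher and 1 lower, with a median log2 ratio of 0.40. Across all 8049 genes measured in that comparison 10.2% were called higher and 20.5% lower. Of the fatty acid members 11 of 16 were measured, 2 were called higher and 1 lower, and the median was 0.09. The 8 members not measured were Lss, Hsd17b7, Tm7sf2, Acacb, Scd1, Elovl6, Me1 and Oxsm.

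Along the mevalonate part of the pathway, Idi1, the isomerase that readies the isoprenoid units, moved most. Idi1 (chromosome 13, 8885501 to 8892451, GRCm38) stood at 72.3, 88.8 and 71.4 CPM in cycling-like cells and at 10.9, 15.5 and 15.3 CPM in quiescent DP-like cells. Every cycling-like value of Idi1 was above every quiescent one, and the log2 ratio was 2.49 ± 0.25. Hmgcs1, at the entry, had 35.8, 42.2 and 36.0 CPM against 16.9, 19.2 and 20.6, a ratio of 1.01 ± 0.18 that missed the call in p53-/- (0.81). The kinases in between were flat or nearly so: Mvk had a ratio of 0.19 ± 0.03 and Pmvk of 0.40 ± 0.34. Mvd, the decarboxylase, came to 0.89 ± 0.20. Fdps, which makes the farnesyl diphosphate shared by sterols, ubiquinone and prenylated proteins, had 82.3, 150.4 and 92.4 CPM in cycling-like cells and 36.1, 49.1 and 40.3 CPM in quiescent ones, a ratio of 1.33 ± 0.24. Acat2, the cytosolic thiolase that supplies acetoacetyl-CoA, had a ratio of 1.07 ± 0.17. With TMM scaling Hmgcs1 (1.17 in p53-/-), Mvd and Acat2 passed 2-fold in each library. That scaling raised the ratio of every gene, and the share of all genes called under it is not given here.

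Among the squalene and lanosterol steps, Fdft1, Sqle and Cyp51 were higher in dividing cells as well, but the later steps differed less. Lss, between Sqle and Cyp51, was under the UMI limit, with a ratio of 0.12 ± 0.23. Fdft1, squalene synthase, had a ratio of 1.14 ± 0.15 and missed the call in p53+/- (0.98, or 1.34 with TMM scaling, which gave a call). Sqle, squalene epoxidase, had 18.7, 19.8 and 18.5 CPM in cycling-like cells and 5.35, 5.53 and 5.68 CPM in quiescent DP-like cells, and its 3 ratios lay between 1.70 and 1.84. Cyp51, lanosterol demethylase, had 31.9, 37.3 and 31.3 CPM against 8.29, 6.41 and 8.42, a ratio of 2.12 ± 0.36. From there on the ratios were small: 0.28 ± 0.07 for Nsdhl, 0.11 ± 0.23 for Ebp, 0.02 ± 0.65 for Msmo1 and -0.25 ± 0.25 for Sc5d. Dhcr7, the reductase of the last step from 7-dehydrocholesterol, went the other way, with 14.3, 18.4 and 13.6 CPM in cycling-like cells and 35.2, 44.0 and 34.9 CPM in quiescent DP-like cells, a ratio of -1.31 ± 0.05. With TMM scaling its ratios were -0.94, -0.73 and -0.99, each under 2-fold, so that this call was lost. Dhcr7 was highest in quiescent DP-like cells in each library. Ggps1, which diverts farnesyl diphosphate to protein prenylation, had a ratio of -1.11 ± 0.20 and was also highest in quiescent DP-like cells in each library, but missed the 2-fold call in p53+/- (-0.99).

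**Figure D2:**
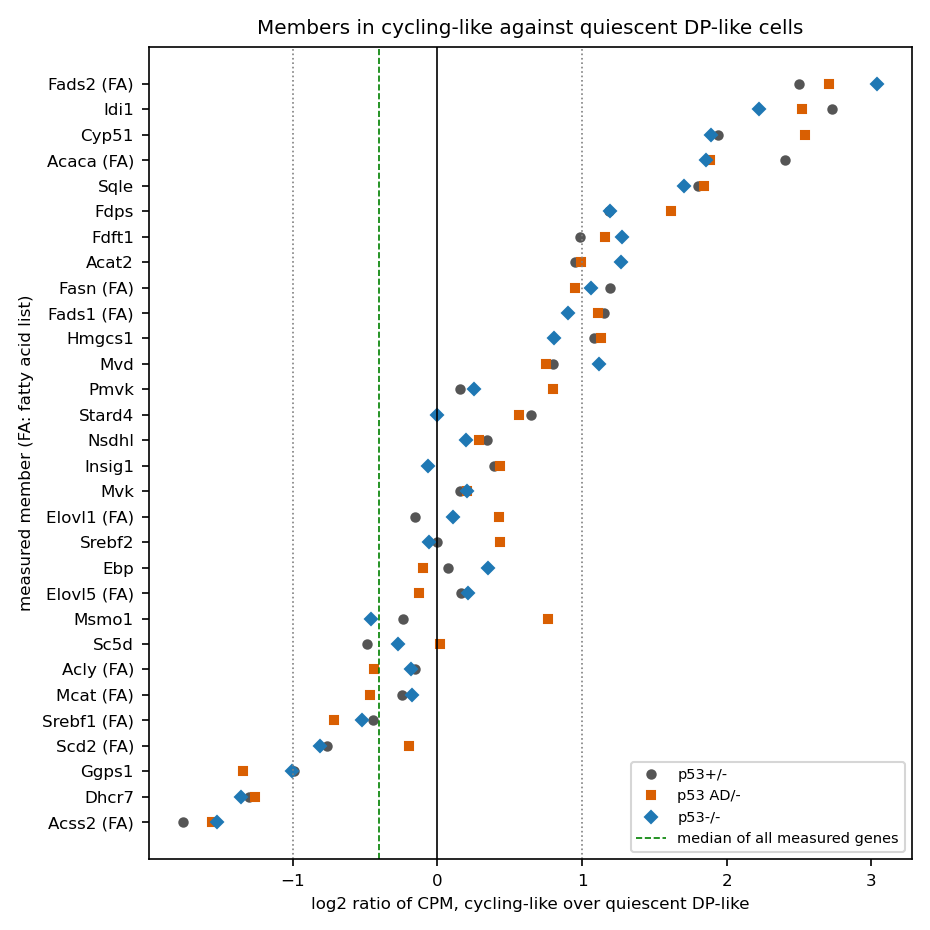
Log2 ratio of CPM between cycling-like and quiescent DP-like cells for each measured member, 1 point per library. Dotted lines mark 2-fold, the dashed line the median of all measured genes (-0.40). Fads2, Idi1, Cyp51, Acaca, Sqle and Fdps lie right of 2-fold in all 3 libraries, and Dhcr7 and Acss2 left of it (Dhcr7 not with TMM scaling). With TMM scaling, not drawn, Hmgcs1, Fdft1, Mvd, Acat2, Fasn and Fads1 would lie right of it too.

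The regulators themselves were not called. Srebf2, the factor of the sterol branch, had a ratio of 0.13 ± 0.27 between cycling-like and quiescent DP-like cells. Srebf1 was lower in cycling-like cells in each library, with 16.2, 13.0 and 16.8 CPM against 22.0, 21.2 and 24.1, a ratio of -0.56 ± 0.14 that is close to the median of all genes. With TMM scaling the 3 ratios of Srebf2 lay above 0 and those of Srebf1 below it. Insig1, the retention factor, had 21.8, 21.8 and 22.7 CPM against 16.6, 16.1 and 23.8, so it was higher in dividing cells of p53+/- and p53 AD/- and not in p53-/- (ratio 0.25 ± 0.28). Stard4, a carrier of cholesterol between membranes, came to 0.40 ± 0.36.

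Fatty acid members split by step. Acaca, which makes malonyl-CoA, had 20.5, 13.9 and 18.5 CPM in cycling-like cells against 3.88, 3.76 and 5.09, a ratio of 2.05 ± 0.31. Fads2, the delta-6 desaturase of polyunsaturated fatty acids, had 11.9, 11.6 and 14.5 CPM against 2.10, 1.77 and 1.76 and the highest ratio of any measured member, 2.75 ± 0.27. Its partner Fads1 had a ratio of 1.06 ± 0.14 and Fasn, the synthase, one of 1.07 ± 0.12, both under 2-fold in 1 library. With TMM scaling both passed 2-fold in each library. Acly, which supplies the acetyl-CoA from citrate, had a ratio of -0.26 ± 0.16. Acss2, which makes acetyl-CoA from acetate instead, was the lowest, with 8.93, 9.32 and 8.62 CPM in cycling-like cells against 30.1, 27.4 and 24.8, a ratio of -1.61 ± 0.13. Scd2 fell short of a call at -0.59 ± 0.34, and the elongases Elovl1 and Elovl5 stood at 0.13 ± 0.29 and 0.09 ± 0.18.

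Within the dividing cells the members differed by phase. The cluster led by replication genes (S-led) was set against the clusters led by mitotic genes (G2/M-led). Idi1 had 99.1, 133 and 102 CPM in S-led cells and 57.9, 70.6 and 59.7 CPM in G2/M-led cells, a log2 ratio of 0.82 ± 0.08. Fasn had 34.8, 31.2 and 33.7 CPM against 17.5, 13.0 and 18.2, a ratio of 1.04 ± 0.19. Cyp51 was higher in S-led cells as well (0.61 ± 0.36), while Mvk (-0.71 ± 0.17) and Acss2 (-0.85 ± 0.59) were lower there. The cholesterol sum was 541, 828 and 643 CPM in S-led cells and 542, 632 and 571 CPM in G2/M-led cells, so the S-led excess was absent in p53+/-.

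DN-like cells, 1 cluster led by Plac8, Myl10, Il2ra and Hes1, also carried markers of other classes. Markers of gamma-delta T cells (7 genes) summed to 1199, 1629 and 1374 CPM there, against 31.9, 26.8 and 39.2 CPM in quiescent DP-like cells and 1562, 1104 and 1812 CPM for the DN markers (9 genes) of the same cells. Cycling markers (16 genes) summed to 1127, 1468 and 1152 CPM there against 245, 183 and 319 CPM in quiescent DP-like cells. The part of either marker list in the DN-like levels was not tested. Hmgcs1, Idi1 and Fdps were called higher than in quiescent DP-like cells among 9 cholesterol members measured, with log2 ratios of 1.48 ± 0.07, 2.73 ± 0.18 and 1.59 ± 0.51, and Acss2 was called lower (-1.76 ± 0.57) among 4 fatty acid members measured. Of all 5793 genes measured there 5.33% were called higher and 14.7% lower. By CPM alone, 8 of the 22 cholesterol members and 7 of the 16 fatty acid members were highest in DN-like cells in each library, and 5 and 5 were with TMM scaling. Most of the members in these counts were under the UMI limit in this comparison, such as Lss, Mvd, Acaca and Fads2. The share of all genes highest in DN-like cells is not given here, so the counts do not set the members apart. No member was called in selected-like or mature SP-like against quiescent DP-like cells, where 2.7% and 5.41% of all measured genes were called higher and 3.44% and 12.1% lower.

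Some members were nearly silent in thymocytes. Scd1, a desaturase of liver and fat, stayed at or under 0.587 CPM in the 5 thymocyte classes of each library, as did Me1, a source of NADPH, at or under 0.63 CPM. Their highest levels were in small clusters of other cells: Scd1 reached 96.3 CPM in p53+/- in the 11 cells of a stromal-like cluster led by Sparc, Col3a1 and Dcn, and Me1 reached 135 CPM in p53 AD/- in a 28-cell cluster led by Cd74, S100a8 and Krt17, which is given no cell type here. These rest on 15 and 57 UMIs, beside 5 UMIs of Scd1 and 2 of Me1 in the quiescent DP-like cells of the same library. Acacb, the second acetyl-CoA carboxylase, had 52 UMIs over the 5 classes and the 3 libraries. Fat cell markers (7 genes) summed to 4.41, 1.99 and 2.06 CPM in quiescent DP-like cells of p53+/-, p53 AD/- and p53-/-, with 3 to 5 of them at 0.

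Genes around the pathway, from 4 further lists, showed where the synthetic genes stood apart. Of the sterol efflux and storage genes 7 of 10 were measured and all 7 were lower in cycling-like than in quiescent DP-like cells in each library, with a median log2 ratio of -1.82. Called lower were Abcg1, an exporter of cholesterol (-2.95 ± 0.04), Lipa, the lysosomal lipase (-2.42 ± 0.13), Mylip, a ubiquitin ligase (-2.40 ± 0.18), and Soat1, which esterifies cholesterol for storage (-1.82 ± 0.03). Abcg1 had 13.4, 11.1 and 16.5 CPM in cycling-like cells and 107, 86.3 and 124 CPM in quiescent DP-like cells. Of all genes measured in this comparison 10.2% were called higher and 20.5% lower. In the sensing and uptake list 4 of 11 measured genes were called lower (Npc1, Mbtps1, Mbtps2 and Insig2) and 2 higher. Tmem97 of the same list, a binding partner of NPC1, was called higher, with 36.2, 48.2 and 37.1 CPM against 2.62, 2.65 and 3.33, a ratio of 3.82 ± 0.35. The isoprenoid branch had a median of -0.34 with 1 of 11 called lower, and the acyl chain list -0.02 with 1 of 10 called higher. Neither of these counts was above the share of all genes. The efflux genes kept their direction with TMM scaling, whose shift is smaller than the size of the 4 ratios.

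**Figure D3:**
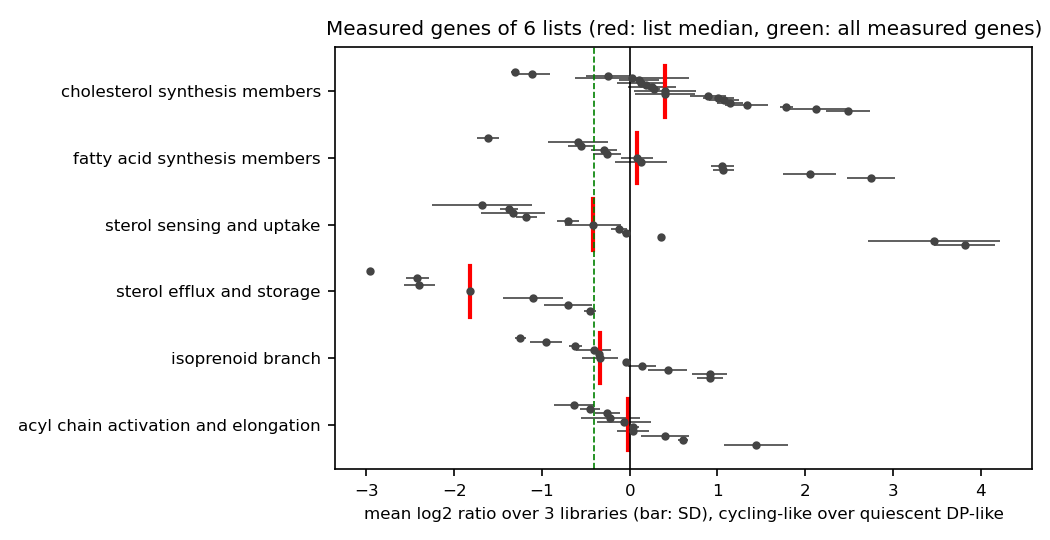
Mean log2 ratio of CPM between cycling-like and quiescent DP-like cells over 3 libraries (bar: SD) for the measured genes of 6 lists. Red marks give list medians (0.40 for cholesterol synthesis, -1.82 for efflux and storage) and the green line the median of all measured genes (-0.40).

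Between genotypes, the list sums of quiescent DP-like cells differed little. For the cholesterol sum the log2 ratio of p53 AD/- over p53-/- was -0.09 (95% interval -0.17 to -0.01), that of p53 AD/- over p53+/- was 0.10 (0.02 to 0.18), and that of p53-/- over p53+/- was 0.19 (0.13 to 0.25). The first of these changed sign without Srebf2 (0.060) and with all filtered cells together (0.11). The fatty acid sum was lower in p53 AD/-, by -0.26 (-0.35 to -0.17) against p53-/- and -0.17 (-0.26 to -0.07) against p53+/-. Without Scd2, at 140, 114 and 153 CPM in p53+/-, p53 AD/- and p53-/-, these were -0.14 and -0.067. In cluster 0 alone they were -0.041 and -0.019. The 2 comparisons of p53 AD/- share a library and are not independent of each other.

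A member was called between libraries at 1.5-fold with at least 100 UMIs over both. In quiescent DP-like cells 17 cholesterol and 9 fatty acid members were measured for p53 AD/- over p53-/-, and 2 were called higher and 3 lower, against 5.46% and 15.1% of the 8464 genes measured. For p53 AD/- over p53+/-, where 17 and 8 were measured, 3 were called higher and 1 lower, against 6.04% and 9.86% of all. For p53-/- over p53+/-, where 18 and 10 were measured, 1 was called higher and 0 lower, against 3.27% and 1.64%. Read against all genes, these counts of called members do not stand apart.

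The largest of these differences was that of Srebf2, which encodes the sterol regulator and hosts the microRNA gene Mir33 (chromosome 15, 82147181 to 82205379, GRCm38). Srebf2 stood at 54.6 CPM in p53+/- (520 UMIs), 30.3 in p53 AD/- (137 UMIs) and 74.1 in p53-/- (757 UMIs), with log2 ratios of -1.29 (-1.56 to -1.03) and -0.85 (-1.13 to -0.58) for p53 AD/- over p53-/- and p53+/-. In cluster 0, which held most p53 AD/- cells of the class, the intervals ran from -1.40 to -0.60 and from -1.21 to -0.49. In cluster 2, with 15 UMIs in p53 AD/-, the ratios were -0.33 (-1.18 to 0.40) and 0.19 (-0.67 to 0.94). Over the 13 clusters of the 5 thymocyte classes and the unnamed class with at least 10 cells per library, Srebf2 was lower in p53 AD/- than in p53-/- in all 13, with an interval that excluded 0 in 11, and lower than in p53+/- in 10, with such an interval in 7. The same transcript was higher in p53-/- than in p53+/- in all 13, by 0.14 to 0.58. The clusters come from the same libraries, so they are not independent of each other and are not replicates of a genotype. DN-like cells had 58.6, 23.0 and 74.5 CPM in the order p53+/-, p53 AD/-, p53-/-, cycling-like cells 54.6, 41.0 and 71.3, selected-like cells 47.6, 42.0 and 62.4, and mature SP-like cells 32.6, 32.7 and 43.5, so the deficit against p53+/- was not seen in mature cells.

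Members called in quiescent DP-like cells beside Srebf2 came from both lists. Fdft1 had 5.98, 10.6 and 5.97 CPM in p53+/-, p53 AD/- and p53-/- (57, 48 and 61 UMIs), and p53 AD/- was higher than p53-/- by 0.83 (0.25 to 1.40) and than p53+/- by 0.83 (0.24 to 1.41). Ebp, the sterol isomerase, had 37.5, 56.0 and 34.5 CPM and was called higher than in p53-/- (0.70, 0.46 to 0.94), a call lost in cells matched on their Malat1 share (0.52, 0.20 to 0.85). Fdft1 had under 100 UMIs in those matched cells and could not be called. Nsdhl (0.89, 0.31 to 1.46) and Mcat, of mitochondrial fatty acid synthesis (0.63, 0.20 to 1.05), were called higher in p53 AD/- than in p53+/-. Neither kept a call in the matched cells, where 12 cholesterol and 6 fatty acid members were measured and 0 were called higher. Whether Nsdhl and Mcat reached the UMI limit there is not given here. Stard4 had 13.0, 13.5 and 21.2 CPM, so that p53-/- exceeded p53+/- by 0.71 (0.38 to 1.04) and p53 AD/- was below p53-/- by -0.66 (-1.09 to -0.24). Fads1, with 23 UMIs in p53 AD/-, was lower than in p53-/- (-0.86, -1.58 to -0.19), which turned to 0.32 and 0.47 in clusters 1 and 2 alone. Scd2, the fatty acid member with most UMIs, stood at -0.42 (-0.57 to -0.28) and -0.30 (-0.45 to -0.16) for p53 AD/- over p53-/- and p53+/-. Cyp51 (-0.37) was, after Srebf2, the lowest cholesterol member for p53 AD/- over p53+/-, and Acss2 (-0.14), after Scd2, the lowest fatty acid member. For p53-/- over p53+/- the lowest members were Sc5d (-0.16) and Ebp (-0.12) of the cholesterol list and Acss2 (-0.28) and Elovl1 (-0.21) of the fatty acid list, all with smaller differences than the called ones.

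In cycling-like cells, where the counts were deepest, the cholesterol members of p53 AD/- stood above those of the other libraries. The sum had a log2 ratio of 0.35 (0.30 to 0.39) against p53+/- and 0.22 (0.18 to 0.26) against p53-/-, and the median member 0.24 in both, while the median of all measured genes was -0.11 and -0.20. Fdps held 15.2%, 21.8% and 15.6% of that sum in p53+/-, p53 AD/- and p53-/-, and the ratios without Fdps are not given here. Higher in p53 AD/- were 18 of 21 measured members against p53+/-, where 39.0% of all genes were, and 16 of 22 against p53-/-, where 32.6% were. Called higher were 5 of 21 (23.8%) against p53+/-, where 3.53% of all 9020 genes were, and 3 of 22 (13.6%) against p53-/-, where 2.75% of 9486 were. Called lower were 0 and 1, where 13.5% and 20.8% of all genes were. TMM scaling raised the ratios of this class by 0.15 and 0.23, with 6 members called higher in each comparison against 7.38% and 7.72% of all genes. In 770 cells per library matched on their share of Malat1 UMIs, 5 of 19 and 3 of 20 were called higher and 0 and 1 lower. The list medians there were 0.32 and 0.22, against -0.09 and -0.14 for all genes. The shares of all genes called in the matched cells are not given here. Between p53-/- and p53+/- no member of either list was called in cycling-like cells, where 2.74% of all genes were called higher and 0.937% lower.

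The called members were spread over the pathway. Fdps had 82.3 CPM in p53+/- (1475 UMIs), 150.4 in p53 AD/- (1614 UMIs) and 92.4 in p53-/- (2326 UMIs), so p53 AD/- was higher by 0.87 (0.77 to 0.97) and 0.70 (0.61 to 0.79). Fdft1 had 11.8, 23.8 and 14.5 CPM, higher by 1.01 (0.74 to 1.28) and 0.71 (0.48 to 0.95), and Msmo1, the sterol C4-methyl oxidase, had 12.7, 22.2 and 13.7 CPM, higher by 0.80 (0.53 to 1.07) and 0.69 (0.45 to 0.94). Nsdhl, with 7.59, 13.5 and 9.34 CPM, and Mvd, with 4.58, 7.45 and 5.32 CPM, were called against p53+/- only, by 0.83 and 0.70. Against p53-/- they stood at 0.53 and 0.49, and the difference between these ratios was not tested. Srebf2 was the member called lower, against p53-/- (-0.80, -0.95 to -0.65), and TMM scaling brought it to -0.57, under the 1.5-fold limit. The 13 fatty acid members measured had medians of -0.32 against p53+/- and -0.30 against p53-/-, below those of all genes. Above 0 were 5 and 4 of the 13, close to the 39.0% and 32.6% of all genes. Called higher was 1 in each comparison, where 3.53% and 2.75% of all genes were. Called lower were 1 and 3, where 13.5% and 20.8% of all genes were. Of the 13 members, Elovl1, an elongase of saturated chains, was higher in p53 AD/- than in both (7.92, 13.7 and 8.22 CPM, ratios 0.79 and 0.74), and Fads1 lower than in both (17.1, 11.0 and 17.2 CPM, ratios -0.64 and -0.65). Acly and Elovl6 were also called lower against p53-/- (-0.60 and -0.67). With TMM scaling none of the fatty acid members was called lower. The Elovl1 locus overlaps the mitotic gene Cdc20 by 53 bases on the opposite strand, and whether strand was used in counting was not given in the sources used here.

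**Figure D4:**
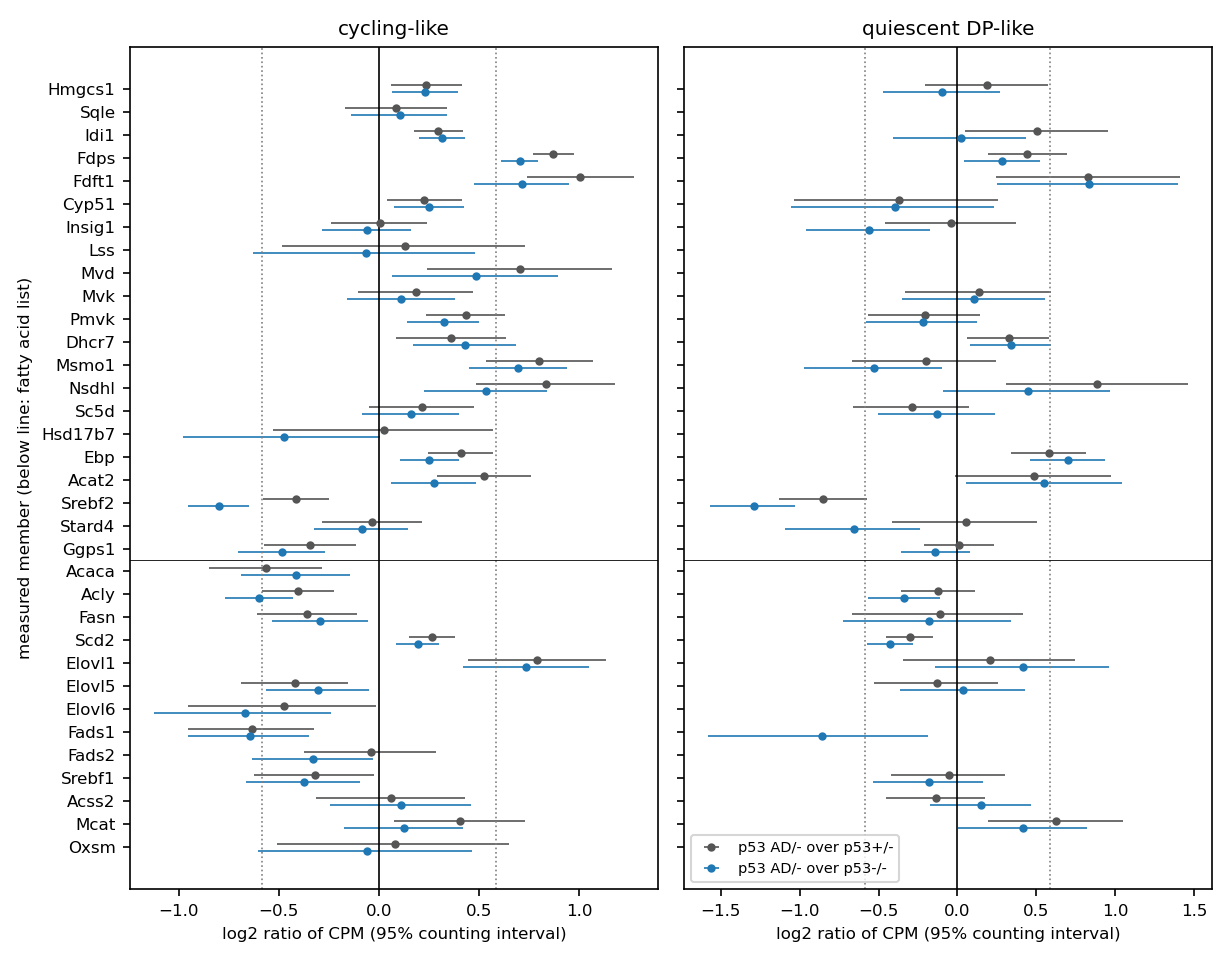
Log2 ratio of CPM of p53 AD/- over p53+/- (grey) and over p53-/- (blue) for each member measured in cycling-like cells (left) and, where measured, in quiescent DP-like cells (right), with 95% intervals for counting error. Dotted lines mark 1.5-fold. In cycling-like cells Fdps, Fdft1 and Msmo1 lie above it in both comparisons, and Srebf2 lies left of 0 in both classes.

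Fdps (chromosome 3, 89093588 to 89101959, GRCm38) was higher in p53 AD/- than in the other libraries in all 5 classes as summed, but not in every cluster of the quiescent DP-like class. DN-like cells had 76.3, 210.1 and 121 CPM in p53+/-, p53 AD/- and p53-/-, selected-like cells 44.4, 71.1 and 49.7, and mature SP-like cells 28.6, 55.6 and 31.7, beside the cycling-like and quiescent DP-like values above. The excess over p53+/- was 1.46 (1.08 to 1.85) in DN-like, 0.68 (0.48 to 0.88) in selected-like and 0.96 (0.57 to 1.35) in mature SP-like cells, where 12.5%, 3.81% and 7.6% of all measured genes were called higher. In quiescent DP-like cells the excess was 0.44 and not called, and it was 0.23 (-0.10 to 0.56) in cluster 0, -0.34 in cluster 1 and -0.14 in cluster 2, the last 2 on 6 and 7 UMIs in p53 AD/-. Against p53-/- the same clusters gave 0.072, -0.58 and -0.41. Matched on the Malat1 share it was 0.91 in DN-like, 0.89 in cycling-like, 0.57 in selected-like and 0.085 (-0.52 to 0.68, 45 and 55 UMIs) in mature SP-like cells, so the selected-like call fell just under the limit and the mature SP-like excess was lost. The Fdps locus shares 7512 bases with the annotated gene Gm43738 on the same strand, so its counts are uncertain to the extent that reads were split between them or left out.

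Idi1 stood apart in selected-like cells, with 10.8, 22.7 and 11.3 CPM in p53+/-, p53 AD/- and p53-/-, which put p53 AD/- higher by 1.07 (0.69 to 1.45) and 1.01 (0.63 to 1.40). In cycling-like cells its excess was 0.30 and 0.31, and in quiescent DP-like cells 0.50 and 0.020. The selected-like cholesterol sum was higher in p53 AD/- by 0.26 (0.19 to 0.33) against p53+/- and 0.15 (0.08 to 0.22) against p53-/-. Called there against p53-/- were Idi1 and Msmo1 higher and Stard4 and Insig1 lower among 18 measured, with 3.32% of all genes higher and 14.3% lower. In the same cells Srebf1 was lower in p53 AD/- than in p53+/- (12.4 against 20.5 CPM, -0.72), where 8.95% of all genes were called lower. The mature SP-like cholesterol sum was higher in p53 AD/- by 0.31 (0.19 to 0.44) and 0.26 (0.14 to 0.39). Cycling markers moved with it, at 430.5, 714 and 559 CPM in mature SP-like cells of p53+/-, p53 AD/- and p53-/-, and their part in it was not tested. Called there against p53-/- were Fdps and Ebp higher among 6 cholesterol members measured, beside 5.24% of all genes, and Acss2 lower (-0.77), beside 18.7%.

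The remaining calls were few. In DN-like cells p53 AD/- exceeded p53-/- in Fdps (0.79, 0.46 to 1.12) and Ebp (1.12, 0.52 to 1.71) and was lower in Srebf2 on 15 UMIs (-1.69, -2.58 to -0.91), where 8.72% of all genes were called higher and 22.1% lower. Fdps was the DN-like member called for p53-/- over p53+/- too (0.67, 0.31 to 1.04), where 3.48% of all genes were called higher and 1.74% lower. In selected-like cells p53-/- exceeded p53+/- in Stard4 (15.1 against 9.82 CPM, 0.62) and Fads1 (10.4 against 5.93 CPM, 0.80), where 3.18% were called higher and 1.48% lower. Stard4 was thus higher in p53-/- than in p53+/- in both quiescent DP-like and selected-like cells, while in cycling-like cells it had 20.4 and 21.2 CPM. Elovl1 of selected-like cells was higher in p53 AD/- than in both other libraries (0.68 and 0.86), as in cycling-like cells, and Elovl5 and Fads1 were lower than in p53-/- (-0.70 and -0.66). In mature SP-like cells no member was called for p53-/- over p53+/-, where 4.18% of all genes were called higher and 0.991% lower, and none was called lower for p53 AD/- over p53+/-, where 10.8% were.

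**Figure D5:**
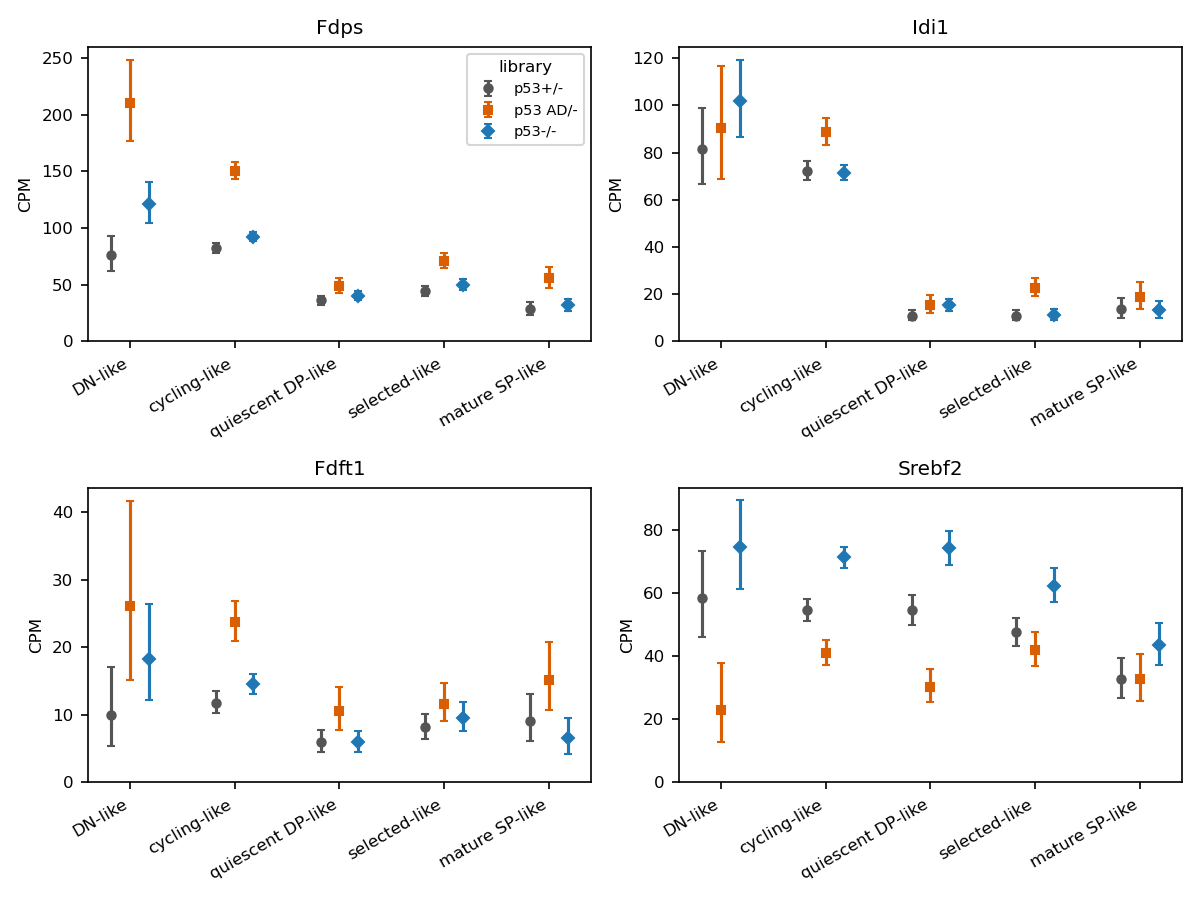
CPM of Fdps, Idi1, Fdft1 and Srebf2 by class and library, with 95% Poisson intervals for counting error. Fdps of p53 AD/- lies above the other libraries in each class as summed (not in quiescent DP-like clusters 1 and 2 alone), Idi1 stands apart in p53 AD/- in selected-like cells, and Srebf2 of p53 AD/- lies below p53-/- in each class.

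Other measures moved with the genotype. The p53 AD/- library had the lowest median UMIs per cell in 4 of the 5 thymocyte classes and the lowest median share of the nuclear RNA Malat1 in all 5, with medians of 0.824%, 0.771% and 1.10% in cycling-like cells and 6.38%, 4.41% and 7.45% in quiescent DP-like cells of p53+/-, p53 AD/- and p53-/-. Red cell markers (6 genes) summed to 583, 16.4 and 13.2 CPM in quiescent DP-like cells and to 8.48, 3.26 and 3.42 CPM in cycling-like cells, with 0 to 2 of them at 0, and granulocyte markers (8 genes) to 40.4, 6.64 and 49.3 CPM in quiescent DP-like cells, with 0 to 4 at 0. Their part in the differences between libraries was not tested beyond the matching on Malat1. Outside the 38 members, Apoe, a lipid carrier, was higher in p53 AD/- than in p53+/- in cycling-like cells (56.0 against 24.8 CPM, 1.18), and the sensing genes Npc1 (-1.16), Mbtps2 (-0.99) and Scap (-0.95) were lower. In that comparison 3.53% of all genes were called higher and 13.5% lower, and 4 of 13 measured genes of the sensing and uptake list were called lower.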

How the data were processed

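Single-cell RNA of 3 thymus libraries was analysed, 1 per genotype label. The deposited values were raw UMI counts per gene and barcode, and the authors used Cell Ranger 4.0.0 and GRCm38 per the submitters' processing notes; chemistry and strand use were not given in the sources used here. Cells with at least 500 genes and under 10% mitochondrial UMIs were clustered in scanpy 1.11.5 (2000 variable genes without the members and lists, 30 components, 15 neighbours, Leiden resolution 1). Scrublet called 3 of 23864 cells, so doublet calling did not work and doublets remain. Clusters were named from 17 marker lists by a rule set after the clusters were seen (1 own marker among the top 10 genes, 2 among the top 30, 3 detected in 5% of cells, pseudocount 0.25). The 2 clusters that stayed unnamed held 5.35%, 10.5% and 1.26% of cells in p53+/-, p53 AD/- and p53-/-. Their mean marker ratio was highest for the quiescent DP list, and they were left out of that class except in an alternative below. UMIs were summed per class and library and given as CPM with exact Poisson intervals, and ratios with exact conditional binomial intervals (floor 3 UMIs). No test was made. The members and lists were chosen with earlier results of these data known. Named genes were all members called in quiescent DP-like cells, the 2 highest and 2 lowest measured members per list and comparison, Insig1, Srebf1, Srebf2, and up to 3 called genes per direction of the 4 other lists; further genes were added after their values were seen. TMM factors came from edgeR 4.0.16 and gene positions from GENCODE M21. The ratio script was tested on simulated counts. Alternatives covered cell filters, clustering resolution, list genes kept in clustering, doublet scores, TMM scaling, cell means, UMI minimums, Malat1 matching and leaving out each library. Some genes of the other lists are not reported here.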

Additional observations from a re-analysis of the deposited data

How the results depend on the processing

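No paired analysis was possible because each genotype has 1 library. UMIs per class limit the genes with under 100 UMIs, and DN-like and mature SP-like cells most. The boundary of the quiescent DP-like class moved with the clustering. For the list sums of cells compared between libraries or stages, values below are log2 ratios, and for the sums compared between libraries, and those of cycling-like and mature SP-like cells, alternatives not named left them within their counting interval or their SD over libraries. The cause of the changes was not tested.

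For p53 AD/- over p53-/- in quiescent DP-like cells, the cholesterol sum (-0.09) was 0.11 with all filtered cells together, -0.42 in cluster 1 alone and 0.060 without Srebf2; the fatty acid sum (-0.26) was -0.13 at Leiden resolution 2, -0.041, -0.037 and -0.13 in clusters 0, 1 and 2 alone and -0.14 without Scd2. For p53 AD/- over p53+/- the cholesterol sum (0.10) was 0.27 with all filtered cells, -0.19 in cluster 1 alone and 0.21 without Srebf2, and the fatty acid sum (-0.17) was -0.019 in cluster 0, 0.17 in cluster 1 and -0.067 without Scd2. For p53-/- over p53+/- the cholesterol sum (0.19) was 0.11 with TMM factors and 0.088 in cluster 0, and the fatty acid sum (0.09) was -0.045 at resolution 2, 0.010 with TMM factors, 0.022 in cluster 0 and 0.20 in cluster 1. Of single members, Fads1 turned to 0.32 and 0.47 (p53 AD/- over p53-/-) and to 0.51 and 0.89 (over p53+/-) in clusters 1 and 2 alone, and Srebf2 to 0.19 (over p53+/-) in cluster 2 alone.

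For cycling-like over quiescent DP-like cells the cholesterol sum (0.51) was 0.93 with TMM factors, and the fatty acid sum (-0.17) was -0.046 at resolution 2, 0.25 with TMM factors and 0.086 without Scd2. For mature SP-like over quiescent DP-like cells the cholesterol sum (-0.28) was 0.019 with TMM factors, and the fatty acid sum (-0.45) was -0.24 in cells of 1000 or more genes, -0.28 under 5% mitochondrial UMIs, -0.39 and -0.13 at resolutions 0.5 and 2, -0.25 with list genes kept in clustering, -0.43 without the highest Scrublet scores, -0.16 with TMM factors, -0.43 as a mean over cells of CPM and -0.28 without Scd2. For DN-like cells TMM factors gave 0.89 for the cholesterol sum (0.75) and 0.53 for the fatty acid sum (0.40), which was 0.51 at resolution 2 and 0.53 without Scd2. The selected-like fatty acid sum (-0.08) ranged from -0.20 to -0.0065. Leaving out each library in turn, the cholesterol sum ranged from 0.42 to 0.58 (cycling-like) and -0.37 to -0.19 (mature SP-like), and the fatty acid sum from -0.20 to -0.14 and -0.46 to -0.45. Members called higher in cycling-like cells numbered 6, 12 with TMM factors, 3 with at least 300 UMIs and 5 to 8 in the other settings, and members called lower 2, against 1 to 3. For p53 AD/- in quiescent DP-like cells, members called higher ranged from 0 to 4 over p53-/- and from 0 to 6 over p53+/-, and members called lower from 0 to 5 and from 0 to 4. With TMM factors 7.25% of all genes were called higher and 12.5% lower over p53-/-, and 5.25% and 10.9% over p53+/-. The shares of all genes in the other settings, and those of the stage comparison outside the main setting, are not given here. These ranges therefore do not tell a change of the members from a change of all genes. The cluster-alone sums, the sums without 1 member, the quiescent class with the nearest unnamed clusters and the checks of other classes were chosen after seeing the data.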
